A study of Mus musculus with 3 samples.

Results

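The RNAs described here are 7 long noncoding RNAs of imprinted loci, Meg3, Rian, Mirg, H19, Airn, Kcnq1ot1 and Nespas, which were taken from the tables by gene symbol. The list was drawn up with earlier results of these data known. Of these, 6 were listed in the count tables, among 26887 genes listed in any library. Kcnq1ot1 was not listed under that symbol in any of the 3 libraries, and the reads of Kcnq1, the gene in which it lies, are described in its place. RIA-seq pulls one chosen RNA out of fixed cells with antisense oligonucleotides and sequences the RNA that comes with it. It was performed on E14 cells, a feeder-free mouse embryonic stem (ES) cell line of the 129/Ola strain that was kept undifferentiated with LIF. All 3 libraries came from cells fixed with 1% glutaraldehyde for 10 min, and each lysate was hybridized at 37 °C with oligonucleotides antisense to 1 RNA. The oligonucleotides were against Actb, the β-actin mRNA, in Actb RIA-seq (the control library), against Malat1, an abundant nuclear noncoding RNA, in Malat1 RIA-seq, and against Tfrc, the transferrin receptor mRNA, in Tfrc RIA-seq. The 3 libraries carried no other difference in genotype or treatment in their labels. With 1 library per condition there was no replicate, so each comparison is between 2 libraries and not between conditions.

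Imprinted genes are expressed from only the maternal or only the paternal chromosome, as set by DNA methylation that is laid down in the germ line. Many imprinted clusters hold a long noncoding RNA that is expressed from the chromosome on which the neighbouring protein-coding genes are silent. Airn and Kcnq1ot1 are long, mostly unspliced RNAs of the paternal chromosome that stay in the nucleus and silence neighbouring genes on the same chromosome. Nespas is a paternal RNA antisense to the Nesp transcript of the Gnas locus. Meg3, Rian and Mirg are maternal RNAs transcribed in the same direction in the Dlk1-Dio3 region, of which Rian is a host of C/D box snoRNAs and Mirg a host of microRNAs. H19 is a spliced, polyadenylated maternal RNA beside the growth factor gene Igf2, is found largely in the cytoplasm, and is the precursor of the microRNA miR-675.

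Of the 7 RNAs, 3 start inside an intron of a gene on the opposite strand, and these starts are shown together with those of Meg3, the first RNA of the chromosome 12 group, and H19, for contrast. Each sequence holds 250 bases before the start in lower case and the first 50 transcribed bases in capitals. Coordinates are those of build NCBIM37. The Kcnq1ot1, Airn and Meg3 sequences are RefSeq windows of assembly GRCm38.p6 that matched NCBIM37 exactly at 1 place, and the Nespas and H19 sequences were read from the NCBIM37 genome at the start annotated by GENCODE.
Kcnq1ot1, chr7:150482403-150482702, minus strand: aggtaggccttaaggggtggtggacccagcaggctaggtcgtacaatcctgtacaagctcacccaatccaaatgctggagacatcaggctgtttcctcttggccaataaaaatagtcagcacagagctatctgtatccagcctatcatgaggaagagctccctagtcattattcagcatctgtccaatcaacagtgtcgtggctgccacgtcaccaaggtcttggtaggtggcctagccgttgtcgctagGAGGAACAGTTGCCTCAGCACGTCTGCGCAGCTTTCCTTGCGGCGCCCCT
Airn, chr17:12933927-12934226, plus strand: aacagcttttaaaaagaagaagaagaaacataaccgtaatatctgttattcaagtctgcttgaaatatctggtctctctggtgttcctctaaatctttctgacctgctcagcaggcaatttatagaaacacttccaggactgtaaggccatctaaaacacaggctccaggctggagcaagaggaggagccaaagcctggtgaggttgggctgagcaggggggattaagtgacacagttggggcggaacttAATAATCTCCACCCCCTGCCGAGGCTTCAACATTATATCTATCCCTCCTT
Nespas, chr2:174120888-174121187, minus strand: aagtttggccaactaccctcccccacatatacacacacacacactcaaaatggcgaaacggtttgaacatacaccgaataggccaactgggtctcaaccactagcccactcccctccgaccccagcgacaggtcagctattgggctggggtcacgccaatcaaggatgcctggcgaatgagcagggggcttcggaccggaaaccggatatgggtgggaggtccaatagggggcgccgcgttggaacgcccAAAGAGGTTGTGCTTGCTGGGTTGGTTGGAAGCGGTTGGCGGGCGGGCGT
Meg3, chr12:110778956-110779255, plus strand: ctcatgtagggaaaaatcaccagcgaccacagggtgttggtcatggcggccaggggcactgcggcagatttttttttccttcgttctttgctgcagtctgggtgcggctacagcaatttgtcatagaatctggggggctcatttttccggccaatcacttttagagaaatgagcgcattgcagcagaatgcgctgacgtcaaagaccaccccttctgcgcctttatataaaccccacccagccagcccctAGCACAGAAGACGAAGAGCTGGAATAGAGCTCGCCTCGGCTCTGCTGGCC
H19, chr7:149763999-149764298, minus strand: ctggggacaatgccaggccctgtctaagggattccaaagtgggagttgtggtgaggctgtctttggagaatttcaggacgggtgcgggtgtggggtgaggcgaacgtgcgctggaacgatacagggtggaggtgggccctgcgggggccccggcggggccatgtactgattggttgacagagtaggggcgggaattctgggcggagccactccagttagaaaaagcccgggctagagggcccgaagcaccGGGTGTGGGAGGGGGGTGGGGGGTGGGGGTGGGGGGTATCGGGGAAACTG
The Kcnq1ot1 start lay in a Kcnq1 intron of 97.3 kb, 189 kb downstream of the Kcnq1 start. The Airn start lay in an Igf2r intron of 8.24 kb, 28.4 kb from the Igf2r start, and the Nespas start in a Gnas intron of 7.41 kb, 11.1 kb from the Gnas start. The 5 windows differed in CpG content, from 3 CpG dinucleotides in that of Airn and 9 in that of Kcnq1ot1 to 13 for Meg3, 15 for H19 and 18 for Nespas, against a median of 7 over 32544 RefSeq windows of the same length. The hexamer TGCCGC, which is bound in methylated form by the imprint-maintaining factor ZFP57, was searched on both strands. It was found once in the Meg3 window, in none of the other 4, and in 11.7% of all windows.

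Each library is a table of whole read counts by gene, with totals between 10078439 and 14553941. A gene could carry an Ensembl-ID count, listed with its identifier, and a Genome count, for which the table gives Genome as the reference. The files do not say where in a gene the Genome counts lie. Genome counts made up 5.25% of the total in the Actb library, 19.04% in the Malat1 library and 15.1% in the Tfrc library. The 10 genes with the most counts took 52.7%, 23.6% and 33.4% of these totals. Both counts of a gene were summed and divided by the library total, and a fold is the ratio of these shares between 2 libraries. Intervals are at the 95% level and cover counting error only, since the reads carried no molecular identifiers. The shares of most genes were higher in both target libraries than in the control, with a median fold of 1.82 in the Malat1 library over the 14572 genes that had 10 or more counts in each of the compared libraries, and 1.56 in the Tfrc library over 14691 genes. Folds are therefore given beside these medians.

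Among the 6 listed RNAs, 5 had folds of 2 or more over the control in both target libraries, and H19 had a fold near 1 in both. A fold of at least 2 was reached by 42.1% of all genes in the Malat1 library and by 28.6% in the Tfrc library. All 6 passed the minimum of 10 counts in each library. Their median fold was 4.45 in the Malat1 library and 3.14 in the Tfrc library, and 5 of 6 were above the median gene in each. Annotated lincRNA genes outside the list had a median fold of 2.68 in the Malat1 library, with 69.4% of 445 at 2 or more, and 2.20 in the Tfrc library, with 57.8% of 445. Together the 6 RNAs took 1709 counts in the Actb library, 6920 in the Malat1 library and 6448 in the Tfrc library, or 164, 687 and 443 CPM (counts per 1000000 counts of the library). Meg3, Rian and Mirg made up 87.7%, 92.3% and 89.8% of these counts. The fold of this sum was 4.18 (3.96 to 4.41) in the Malat1 library and 2.70 (2.56 to 2.85) in the Tfrc library, and these became 2.30 and 1.71 when libraries were scaled by the median ratio over genes. With that scaling 4 of 6 RNAs had a fold of at least 2 in the Malat1 library and 3 of 6 in the Tfrc library. Among all genes that passed the minimum, 1086 of 14572 and 960 of 14691 had such a fold with that scaling. Rian was then below 2 in both, at 1.96 and 1.57, and Meg3 in the Tfrc library, at 1.88. In Genome counts over the Genome total of the library, 5 RNAs passed the minimum of 10 counts, all but H19. Of these, 1 reached 2 in the Malat1 library, Nespas, and 0 in the Tfrc library. Among all genes that passed in Genome counts, 200 of 8297 and 178 of 8344 reached 2 on this scale. Divided by the median gene, the folds in the Malat1 library were 4.82 for Nespas, 3.27 for Mirg, 2.76 for Meg3, 2.13 for Airn, 1.96 for Rian and 0.531 for H19. In such bulk lysates, fewer cells containing an RNA and less of it per cell cannot be told apart. Both comparisons use the same Actb library, so their values are given side by side and are not independent.

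**Figure D1:**
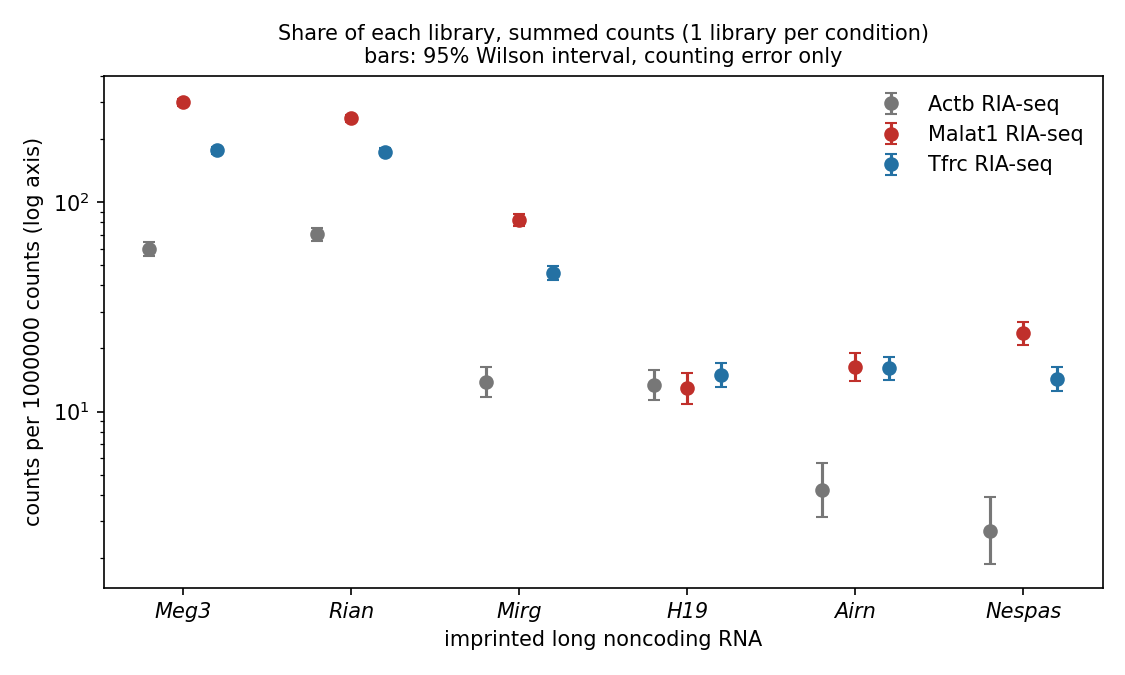
CPM of each listed RNA in Actb, Malat1 and Tfrc RIA-seq, on a log axis, with points for single libraries and bars for the 95% counting interval. H19 lay between 12.9 and 15.0 CPM in the 3 libraries, whereas the other 5 RNAs were lowest in the Actb library.

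Meg3 had 622 counts in the Actb library, 3024 in the Malat1 library and 2581 in the Tfrc library, which are 59.8 (95% Wilson interval 55.3 to 64.7), 300.05 (290 to 311) and 177 (171 to 184) CPM. The 3 intervals did not overlap, with Malat1 RIA-seq highest and the control lowest. The fold was 5.02 (4.60 to 5.47) in the Malat1 library, higher than that of 98.2% of genes, and 2.97 (2.72 to 3.24) in the Tfrc library, higher than that of 91.6%. Meg3 ranked 1686th by count in the Actb library, 351st in the Malat1 library and 605th in the Tfrc library.

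Rian had 732, 2532 and 2540 counts in Actb, Malat1 and Tfrc RIA-seq, or 70.3 (65.4 to 75.6), 251 (242 to 261) and 175 (168 to 181) CPM. It was the highest of the 6 RNAs in the control and came after Meg3 in the Malat1 library. In Tfrc RIA-seq its interval overlapped that of Meg3. Its folds of 3.57 (3.29 to 3.88) and 2.48 (2.28 to 2.69) were the smallest of the 3 chromosome 12 RNAs.

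Mirg was the least counted of that group, with 144, 831 and 667 counts, or 13.8 (11.8 to 16.3), 82.5 (77.0 to 88.3) and 45.8 (42.5 to 49.4) CPM. Its folds of 5.96 (4.99 to 7.11) and 3.31 (2.77 to 3.97) exceeded those of 99.1% and 94.4% of genes. The level was again highest in the Malat1 library and lowest in the control, with no overlap of the intervals.

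H19 had 139 counts in the Actb library, 130 in the Malat1 library and 218 in the Tfrc library. These are 13.4 (11.3 to 15.8), 12.9 (10.9 to 15.3) and 15.0 (13.1 to 17.1) CPM, and the 3 intervals overlapped. The fold was 0.966 (0.760 to 1.23) in the Malat1 library and 1.12 (0.906 to 1.39) in the Tfrc library. In summed counts 10.0% and 20.9% of genes had a lower fold, and in Ensembl-ID counts alone 19.6% and 36.1% did. Relative to the median gene the folds were below 1, at 0.531 and 0.709 when libraries were scaled by the median ratio over genes. Ensembl-ID counts over the Ensembl-ID total gave 1.14 (0.896 to 1.45) and 1.25 (1.01 to 1.55). The direction for H19 in both target libraries thus depends on this choice.

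Airn was among the least counted, with 44, 165 and 234 counts, or 4.23 (3.15 to 5.68), 16.4 (14.1 to 19.1) and 16.1 (14.1 to 18.3) CPM. Unlike the chromosome 12 RNAs, it had overlapping intervals in the target libraries, both above the control. The folds were 3.87 (2.78 to 5.40) in the Malat1 library and 3.80 (2.76 to 5.25) in the Tfrc library.

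Nespas had the largest folds of the 6, on the fewest control counts. It had 28 counts in the Actb library, 238 in the Malat1 library and 208 in the Tfrc library, or 2.69 (1.86 to 3.89), 23.6 (20.8 to 26.8) and 14.3 (12.5 to 16.4) CPM. The folds of 8.78 (5.93 to 12.98) and 5.31 (3.58 to 7.88) were higher than those of 99.8% and 99.2% of genes. In the control its interval overlapped that of Airn, whereas in the Malat1 library it lay above it.

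**Figure D2:**
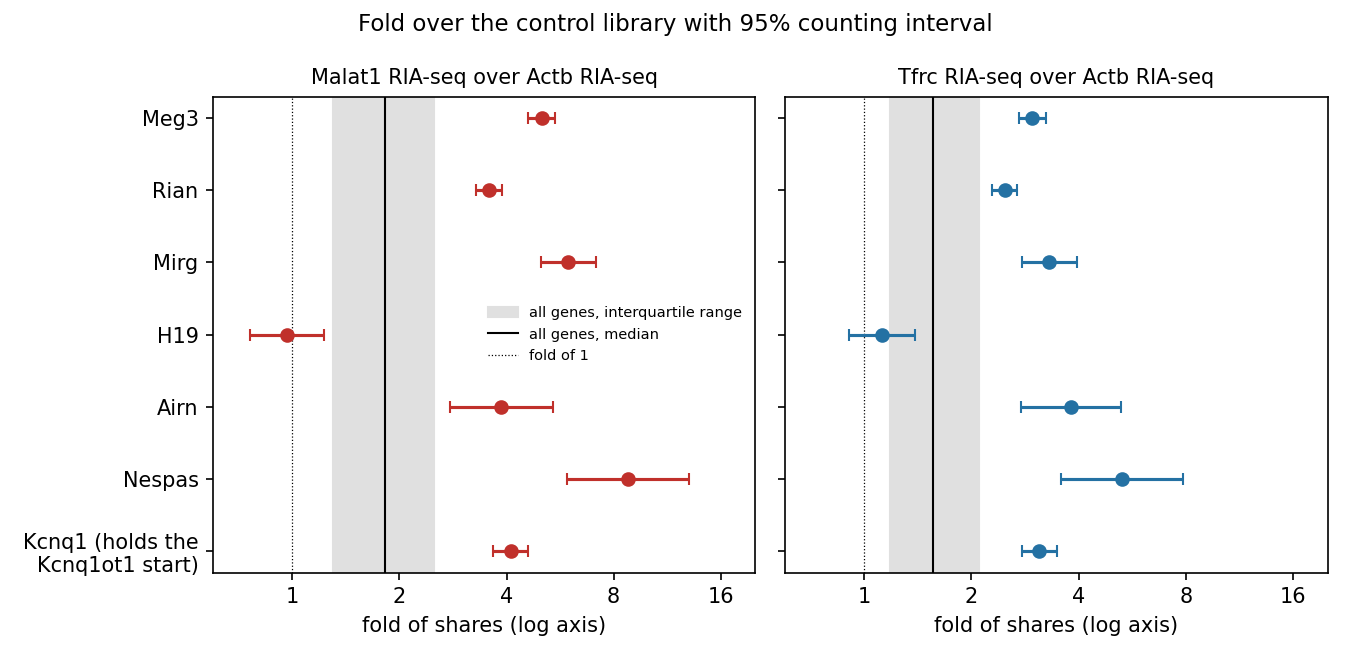
Fold of shares over the control for Malat1 RIA-seq (left) and Tfrc RIA-seq (right) on log axes, with 95% counting intervals, beside the median and interquartile range of all genes that passed the minimum of 10 counts. Nespas lay highest at 8.78 and 5.31, H19 lay at 0.966 and 1.12, and Kcnq1, which holds the Kcnq1ot1 start, at 4.11 and 3.10.

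Malat1 RIA-seq and Tfrc RIA-seq were also compared directly, without the Actb library. In this comparison 4.35% of 16430 genes had a fold of at least 2 in the Malat1 library over the Tfrc library, with a median of 1.15, and 0 of 6 listed RNAs did. Mirg had a fold of 1.80 (1.62 to 1.99), Meg3 of 1.69 (1.61 to 1.78), Nespas of 1.65 (1.37 to 1.99) and Rian of 1.44 (1.36 to 1.52). Their intervals lay above the median of all genes, while that of Airn, at 1.02 (0.834 to 1.24), included it and that of H19, at 0.861 (0.693 to 1.07), lay below it. A chi-square test of the reads of these 2 libraries gave an unadjusted p = 0.859 for Airn and p = 0.177 for H19, and at most 8.96e-08 for the other 4. These p-values cover the counting of reads in 1 amplified library each and are no test between conditions. Annotated lincRNA genes outside the list had a median of 1.25 in this comparison.

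The 6 RNAs differed in the kind of count they carried. H19 was counted almost entirely under its Ensembl identifier, with 1 Genome count of 139 in the Actb library, 0 of 130 in the Malat1 library and 1 of 218 in the Tfrc library. Its Genome share was 0.719%, 0% and 0.459%, with exact upper bounds of 3.94%, 2.80% and 2.53%. Airn was the opposite, with 0, 2 and 1 Ensembl-ID counts beside 44, 163 and 233 Genome counts, a Genome share of 100%, 98.8% and 99.6%. The 3 chromosome 12 RNAs and Nespas lay between them. Genome counts were 14.3%, 19.1% and 17.8% of the counts of Meg3 in Actb, Malat1 and Tfrc RIA-seq, 26.6%, 34.3% and 34.8% for Rian, 58.3%, 62.3% and 55.5% for Mirg, and 71.4%, 63.0% and 63.0% for Nespas. The annotated intron lengths did not give this order. H19 has 0.243 kb of intron and 2.37 kb of merged exons, while Airn has 115 kb of intron and 3.58 kb of exons. Meg3, with 18.1 kb of exons and 12.6 kb of intron, had the lowest Genome share after H19, and Mirg, with 3.17 kb of exons and 11.3 kb of intron, had a higher Genome share than Rian, with 8.20 kb and 49.6 kb. Nespas, with 3.14 kb of exons and 11.1 kb of intron, had the highest Genome share after Airn.

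Per kilobase of exon, on the scale of Ensembl-ID CPM per kb, Rian and H19 were the highest in the control, at 6.30 and 5.59, followed by Meg3 at 2.83, Mirg at 1.82 and Nespas at 0.245. Airn was at 0 there and at 0.0554 in the Malat1 library. In Malat1 RIA-seq the order on this scale was Rian at 20.1, Meg3 at 13.4, Mirg at 9.78, H19 at 5.44 and Nespas at 2.78. In Tfrc RIA-seq it was Rian at 13.9, Meg3 at 8.06, Mirg at 6.43, H19 at 6.29 and Nespas at 1.68. H19 thus passed from the second place in the control to the fourth in both target libraries, close behind Mirg in the Tfrc library. On the other scale, Genome CPM per kb of intron, Mirg and Meg3 were close in every library, at 0.714 and 0.677 in the control, 4.55 and 4.54 in the Malat1 library, and 2.25 and 2.50 in the Tfrc library. Rian was at 0.378, 1.74 and 1.22 on this scale, Nespas at 0.174, 1.35 and 0.814, and Airn at 0.0367, 0.140 and 0.139.

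The folds were also computed for each kind of count alone, since Genome counts were a larger part of both target libraries. In Ensembl-ID counts, 3 of the 4 RNAs that passed the minimum had a fold of at least 2 over the control in both target libraries, against 24.0% of 13195 genes in the Malat1 library and 14.1% of 13391 in the Tfrc library. The Ensembl-ID folds in the Malat1 library were 4.74 for Meg3, 3.20 for Rian, 5.39 for Mirg and 0.973 for H19, beside a median gene of 1.41. In Tfrc RIA-seq they were 2.85, 2.21, 3.54 and 1.12, beside 1.26, which the interval of H19 (0.908 to 1.39) included. Nespas, with 8, 88 and 77 Ensembl-ID counts, was below the minimum in the control and had folds of 11.4 (5.51 to 23.4) and 6.88. In Genome counts, 5 of the 5 RNAs that passed had a fold of at least 2 in both libraries, which was also the case for 88.6% of 8297 genes in the Malat1 library and 79.6% of 8344 in the Tfrc library. Beside a median gene of 3.60, the Genome folds in the Malat1 library were 6.70 for Meg3, 4.60 for Rian, 6.37 for Mirg and 7.74 for Nespas. The Genome fold of Airn, 3.82 (2.74 to 5.34), included that median. In Tfrc RIA-seq the Genome folds were 3.69 for Meg3, 3.24 for Rian, 3.15 for Mirg, 3.79 for Airn and 4.68 for Nespas, beside a median of 2.86. There the intervals of Rian (2.77 to 3.78), Mirg (2.48 to 3.99) and Airn (2.74 to 5.23) included that median. When Genome counts were divided by the Genome total of the library in place of its whole total, Airn had folds of 1.06 (0.757 to 1.47) in the Malat1 library and 1.32 (0.955 to 1.82) in the Tfrc library, and both intervals included 1. So did those of Rian, 1.13 (0.965 to 1.32), and Mirg, 1.10 (0.865 to 1.39), in the Tfrc library. On this scale Meg3 had folds of 1.85 (1.48 to 2.31) and 1.28 (1.02 to 1.61) and Nespas of 2.14 (1.34 to 3.41) and 1.63 (1.02 to 2.61).

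**Figure D3:**
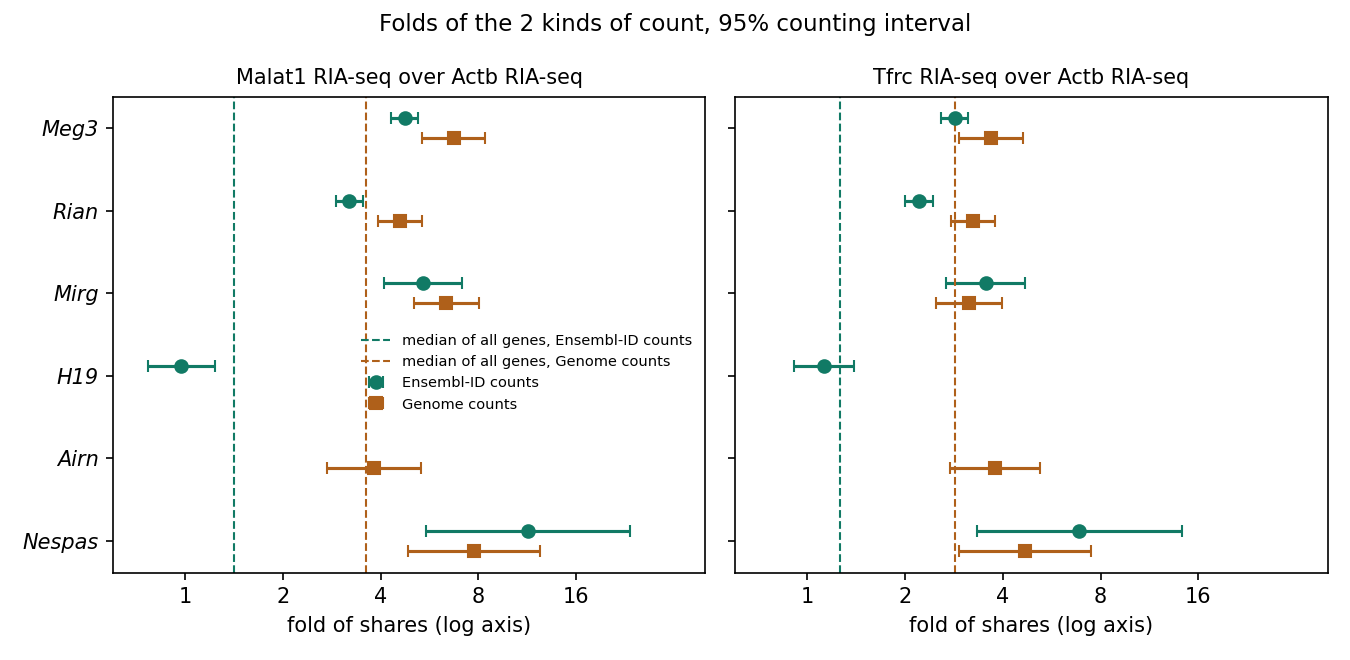
Folds over the control for Ensembl-ID counts (circles) and Genome counts (squares) of each RNA in the Malat1 library (left) and Tfrc RIA-seq (right) on log axes, with 95% counting intervals and the medians of all genes as dashed lines. Ensembl-ID values of Meg3, Rian, Mirg and Nespas lay right of the median of their kind, H19 lay left of it, and the Nespas value rests on 8 control counts.

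Meg3, Rian and Mirg lie on the plus strand of chromosome 12 within 208 kb, at 110779211-110809936, 110842155-110899919 and 110973191-110987665. To see whether their folds were shared with the region, the genes around them were examined. Rtl1, a paternal retrotransposon-derived gene that lies between Meg3 and Rian on the minus strand, had 187, 760 and 780 counts in Actb, Malat1 and Tfrc RIA-seq and folds of 4.20 (3.58 to 4.92) and 2.98 (2.54 to 3.50), close to those of its neighbours. RNA antisense to Rtl1 is transcribed from the maternal chromosome, and the use of strand in the counting is not given in the sources used here, so reads of Rtl1 and its antisense RNA cannot be told apart. Gm17639, a minus-strand gene model that overlaps the end of Meg3 over 3096 bp, had 17, 90 and 72 counts and folds of 5.47 (3.25 to 9.18) and 3.03 (1.78 to 5.14). The same limit applies to it, and it was picked out after its overlap was seen. Among the protein-coding genes around them, Dlk1 and Dio3 had lower folds in summed counts. Dlk1, a Notch-pathway ligand upstream of Meg3, had 14, 29 and 28 counts, with folds of 2.14 (1.13 to 4.05) and 1.43. Dio3, an enzyme that inactivates thyroid hormone, had 44, 68 and 82 counts and folds of 1.60 and 1.33. Wdr25, on the other side of Dlk1, had 172, 628 and 529 counts and folds of 3.77 and 2.20, and Begain, next to it, had 8, 34 and 49 counts and folds of 4.39 (2.03 to 9.48) and 4.38 (2.07 to 9.25), with a control count under the minimum. Of these 5 listed neighbours, 4 passed the minimum. In the Malat1 library 3 of the 4 had a fold of at least 2, against 42.1% of all genes. In the Tfrc library 2 did, against 28.6%. These summed folds mix kinds of count. Wdr25 had 121, 490 and 464 Genome counts, whereas in the control Dlk1 had 2 and Dio3 had 0. Ensembl-ID folds were 2.79 and 0.911 for Wdr25, 3.57 and 2.55 for Rtl1, 2.50 and 1.55 for Dlk1, and 1.57 and 1.33 for Dio3. The Genome folds of Wdr25 were 4.18 and 2.74, beside medians of 3.60 and 2.86.

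**Figure D4:**
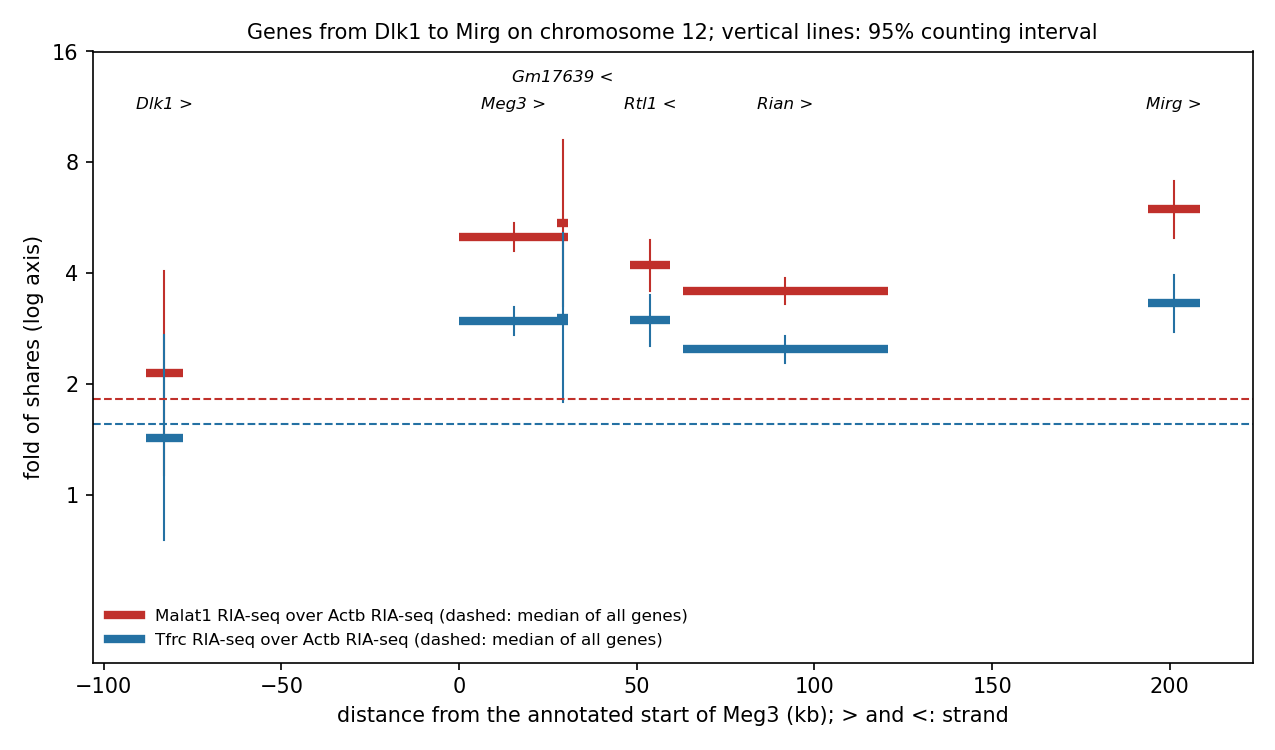
Folds over the control on a log axis against distance in kb from the annotated Meg3 start, with horizontal bars for the extent of each gene, vertical lines for 95% counting intervals and dashed lines for the median of all genes. Meg3, Gm17639, Rtl1, Rian and Mirg lay above the median gene in both target libraries, whereas the intervals of Dlk1 included it.

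Ratios between genes within a library do not depend on the library total, and they were used to compare the RNAs with each other and with their neighbours. Meg3 had 0.850 counts per count of Rian in the Actb library, 1.19 in the Malat1 library and 1.02 in the Tfrc library, a change of 1.41-fold (1.25 to 1.58) and 1.20-fold (1.06 to 1.35) over the control. The ratio of Mirg to Rian was 0.197, 0.328 and 0.263, a change of 1.67-fold (1.37 to 2.03) and 1.33-fold (1.10 to 1.63). For Mirg over Meg3 the changes were 1.19-fold (0.975 to 1.45) and 1.12-fold (0.914 to 1.36), and both intervals included 1. In summed counts, Rian was thus less represented in both target libraries relative to Meg3 and Mirg. Summed ratios can mix kinds of count, so the ratios were also taken within one kind. In Ensembl-ID counts Meg3 over Rian changed by 1.48-fold (1.29 to 1.70) and 1.29-fold (1.13 to 1.48), and Mirg over Rian by 1.68-fold (1.26 to 2.26) and 1.60-fold (1.20 to 2.15). In Genome counts the changes in the Malat1 library were 1.46-fold (1.11 to 1.91) and 1.39-fold (1.05 to 1.83), but in the Tfrc library they were 1.14-fold (0.865 to 1.50) for Meg3 and 0.973-fold (0.733 to 1.29) for Mirg, and these intervals included 1. Mirg over Meg3 in Genome counts changed by 0.950-fold (0.689 to 1.31) and 0.854-fold (0.615 to 1.19), and both intervals included 1. Rtl1 over Rian in summed counts changed by 1.17-fold (0.982 to 1.41) and 1.20-fold (1.00 to 1.44). Among the 10 pairs taken, the largest shift in the Malat1 library was that of Meg3 over H19. Nespas and Mirg, with larger folds than Meg3, were not paired with H19. Meg3 over H19 went from 4.47 in the control to 23.3 in the Malat1 library and 11.8 in the Tfrc library. This was a change of 5.20-fold (4.03 to 6.70) and 2.65-fold (2.10 to 3.33). In Ensembl-ID counts alone it was 4.87-fold (3.77 to 6.30) and 2.53-fold (2.00 to 3.20). Nespas over Meg3 changed by 1.75-fold (1.17 to 2.61) and 1.79-fold (1.20 to 2.68), but by 1.15-fold (0.689 to 1.94) and 1.27-fold (0.753 to 2.14) in Genome counts. These 10 gene pairs were picked with earlier values known, and no test between conditions was possible.

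**Figure D5:**
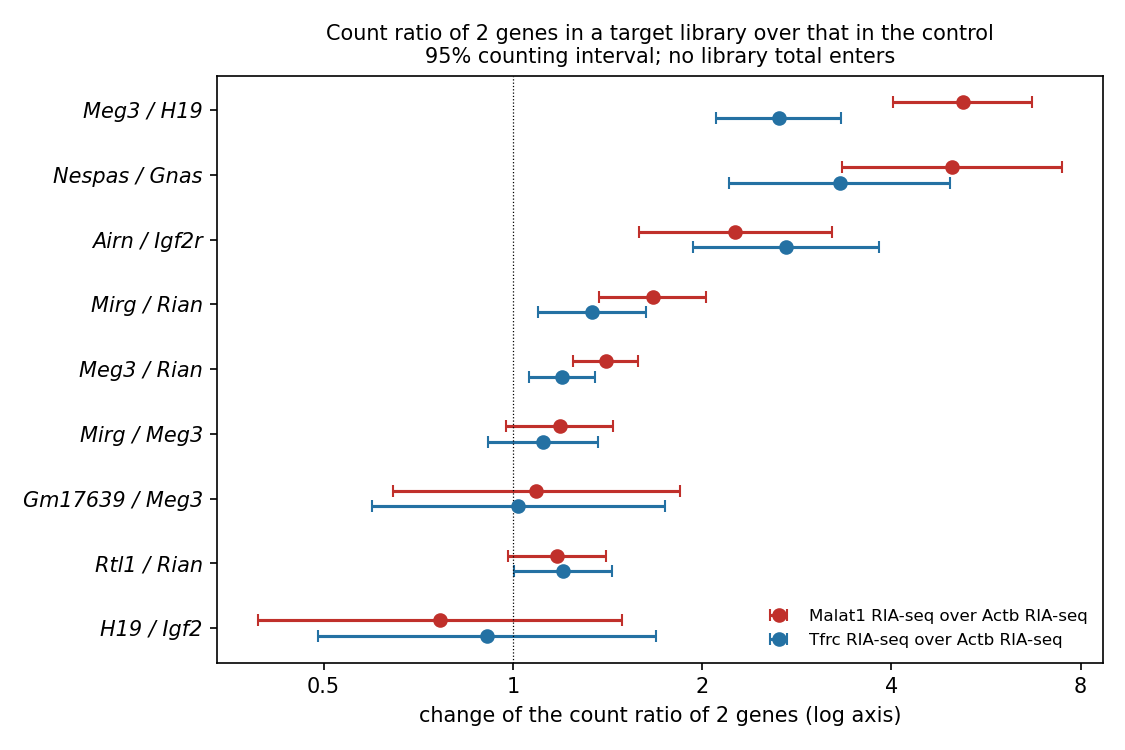
Change of the ratio of summed counts between paired genes in the Malat1 library and Tfrc RIA-seq over the control, on a log axis with 95% counting intervals, where 1 marks the ratio of the control library. Meg3 over H19 lay at 5.20 and 2.65, Nespas over Gnas at 4.99 and 3.31, and Airn over Igf2r at 2.26 and 2.72, which in Genome counts alone were 0.855 and 0.945, and the intervals of Mirg over Meg3 included 1.

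H19, on the minus strand of chromosome 7 at 149761434-149764048, was compared with the genes of its domain. Igf2, a fetal growth factor that shares enhancers with H19, had 18, 22 and 31 counts in Actb, Malat1 and Tfrc RIA-seq, with folds of 1.26 (0.677 to 2.35) and 1.23. The ratio of H19 to Igf2 changed by 0.765-fold (0.393 to 1.49) in the Malat1 library and 0.911-fold in the Tfrc library, and the counts of Igf2 left the interval wide. Mrpl23, a mitochondrial ribosomal protein gene, had 29, 35 and 53 counts. Of the 5 listed neighbours of H19, 2 passed the minimum and 0 had a fold of at least 2 in either target library. Among all genes 42.1% and 28.6% had such a fold.

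Airn lies on the plus strand of chromosome 17 at 12934177-13052988 and overlaps Igf2r, the receptor that clears IGF2, over 28354 bp on the opposite strand. No exon of one overlaps an exon of the other in the annotation. Igf2r had 433 counts in the Actb library, 719 in the Malat1 library and 847 in the Tfrc library. Its folds were 1.71 (1.52 to 1.93) and 1.40 (1.25 to 1.57), with intervals that included the median gene, 1.82 and 1.56. The Ensembl-ID folds of Igf2r were 1.49 and 1.18, beside medians of 1.41 and 1.26. There were 0.102 counts of Airn for each of Igf2r in the control, 0.229 in the Malat1 library and 0.276 in the Tfrc library, a change of 2.26-fold (1.59 to 3.22) and 2.72-fold (1.93 to 3.83). This ratio sets the Genome counts of Airn against the mostly Ensembl-ID counts of Igf2r, of which 33, 143 and 185 were Genome counts. In Genome counts alone Igf2r had folds of 4.47 and 4.01, and Airn over Igf2r changed by 0.855-fold (0.516 to 1.42) and 0.945-fold (0.578 to 1.54), so the direction turned and both intervals included 1. Genome counts of Igf2r per kb of intron, 0.0408, 0.182 and 0.163 CPM per kb, were close to those of Airn given above. How the counting assigned reads of the shared 28354 bp is not given in the sources used here. Airn also overlaps Mas1 over 19044 bp and contains an annotated 7SK gene, which had 6, 13 and 25 counts. Igf2r was the only 1 of 6 listed genes of this domain that passed the minimum.

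Nespas lies on the minus strand of chromosome 2 at 174106738-174120937 and overlaps Gnas, which encodes a stimulatory G protein subunit, over 11117 bp, of which 988 bp are exonic in both. Gnas had 617, 1050 and 1385 counts and folds of 1.76 (1.59 to 1.94) and 1.60 in Malat1 and Tfrc RIA-seq. The ratio of Nespas to Gnas was 0.0454 in the control, 0.227 in the Malat1 library and 0.150 in the Tfrc library. It changed by 4.99-fold (3.33 to 7.48) and 3.31-fold (2.21 to 4.97). In Genome counts alone, of which Gnas had 124, 551 and 576, the change was 1.69-fold (1.02 to 2.80) and 1.41-fold (0.848 to 2.35), the latter with an interval that included 1. Unlike Airn, Nespas carried Ensembl-ID counts in each library, but reads of its exonic overlap with Gnas cannot be assigned to a strand. Nesp was not listed under that symbol.

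Kcnq1ot1 starts in an intron of Kcnq1, a potassium channel gene that it overlaps in antisense. Kcnq1 had 368 counts in the Actb library, 1464 in the Malat1 library and 1596 in the Tfrc library, with folds of 4.11 (3.66 to 4.60) and 3.10 (2.77 to 3.47). Only 1, 8 and 4 of these were Ensembl-ID counts, and the other 367, 1456 and 1592 were Genome counts. The Genome share of Kcnq1 over all libraries was 99.6%, and 6 of 5157 genes with at least 1000 counts had a share at least as high, against a median of 17.2%. Per kilobase, Kcnq1 had 0.111, 0.456 and 0.345 Genome CPM on its 317 kb of intron, and 0.0311, 0.257 and 0.0890 Ensembl-ID CPM on its 3.09 kb of exons. Reads of Kcnq1ot1 and of Kcnq1 introns cannot be told apart in these counts, and the Kcnq1 values are not measurements of Kcnq1ot1. Its Genome folds, 4.10 and 3.10, were near the medians of Genome counts, 3.60 and 2.86. The protein-coding genes that Kcnq1ot1 is known to silence differed among themselves in summed counts, and also in their kind of count. Cdkn1c, a cell cycle inhibitor, had 154, 185 and 187 counts and folds of 1.24 and 0.868. Phlda2, a gene that limits placental growth, had 363, 361 and 578 counts and folds of 1.03 (0.888 to 1.19) and 1.14. Slc22a18, a transporter gene, had 23, 49 and 110 counts and folds of 2.20 (1.34 to 3.61) and 3.42 (2.18 to 5.36), and Ascl2, a transcription factor of the trophoblast, had 10, 22 and 27 counts and folds of 2.27 (1.08 to 4.80) and 1.93 (0.934 to 3.99). Genome counts made up 3 of the 154 control counts of Cdkn1c, 0 of 363 for Phlda2, 14 of 23 for Slc22a18 and 4 of 10 for Ascl2. Ensembl-ID folds were 1.22 and 0.866 for Cdkn1c, 1.02 and 1.14 for Phlda2, 1.26 and 2.78 for Slc22a18, and 3.61 and 3.22 for Ascl2. Ensembl-ID control counts of Slc22a18 and Ascl2 were under the minimum. Among the other genes of the domain were Nap1l4, a histone chaperone, at 2.29 and 1.42 and Tssc4 at 2.72 and 1.84. In Ensembl-ID counts they were at 1.54 and 1.14 and at 2.78 and 1.95. All 10 genes counted for this domain, Kcnq1 among them, passed the minimum. Th, also fixed for it, was counted with the H19 domain and had 0, 3 and 5 counts. Of the 10, 7 had a fold of at least 2 in the Malat1 library and 3 in the Tfrc library, against 42.1% and 28.6% of all genes. Their medians were 2.28 and 1.84.

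Small RNA genes annotated within these transcripts had few counts of their own. Between the start of Meg3 and the end of Mirg, 56 microRNA genes are annotated. Of these 24 were listed, with at most 10 counts in any library and sums of 19, 51 and 51 counts in Actb, Malat1 and Tfrc RIA-seq. None of the 23 snoRNA genes of the same interval, which share 5 symbols and were searched by symbol, was listed. Within Mirg itself, 4 of 10 annotated microRNA genes were listed, with sums of 2, 8 and 6 counts, against 144, 831 and 667 for Mirg. Within Rian, 4 of 4 microRNA genes had sums of 2, 8 and 7 counts, and 0 of 13 snoRNA genes was listed. Mir675 in H19 was not listed. How a read in a small RNA gene inside a host was assigned is not given in the sources used here. Whether any of these reads came from processed small RNAs was not tested, so the counts do not measure their abundance.

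The folds of the listed RNAs were read against other lists. Of 37 further imprinted genes, 34 were listed and 24 passed the minimum, with median folds of 2.09 in the Malat1 library and 1.80 in the Tfrc library. In the Malat1 library 12 of the 24 had a fold of at least 2, against 42.1% of all genes. In the Tfrc library 7 did, against 28.6%. Nnat, a paternal gene active in brain, had the largest fold of them in the Malat1 library, 4.01 (2.75 to 5.84), and Snrpn, a splicing factor gene, the smallest, 0.724 (0.621 to 0.844). In Tfrc RIA-seq the largest was that of Sgce, 3.41. Peg10, a retrotransposon-derived gene, had the most counts of the list, 3191, 3053 and 5921, and folds of 0.988 and 1.33. Factors that maintain or use imprints were nearer to 1, with medians of 1.41 and 1.28. Zfp57, which protects imprinted methylation, had folds of 2.50 (2.35 to 2.66) and 1.97, and Trim28, its corepressor, had folds of 0.954 and 1.07. The Polycomb cofactor Jarid2 had folds of 3.16 and 2.04, and the histone methyltransferase Ehmt1 of 3.01 and 2.11.

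Long noncoding RNAs outside imprinted loci also had higher shares in both target libraries. Of 20 chosen, which include the target Malat1, 13 were listed and 12 passed. Of these 12, 9 had a fold of at least 2 in each target library, Malat1 among them, with medians of 2.97 and 2.28. That fold was reached by 69.4% and 57.8% of annotated lincRNA genes outside the members, and by 42.1% and 28.6% of all genes. Xist, the RNA that coats the inactive X chromosome, had 163, 945 and 1166 counts in Actb, Malat1 and Tfrc RIA-seq and folds of 5.99 and 5.11. Its antisense partner Tsix had 119, 744 and 587 counts and folds of 6.45 and 3.53, and the paraspeckle RNA Neat1 had folds of 5.57 and 2.76. Gas5, a spliced host of snoRNAs, had folds of 1.90 and 1.48. Reads of Xist and Tsix, which overlap, cannot be told apart without strand. In both target libraries the folds of Xist and Tsix were above those of Meg3 and Rian and below those of Nespas. Their intervals were 5.07 to 7.07 and 5.32 to 7.83 in the Malat1 library, and 4.34 to 6.03 and 2.90 to 4.29 in the Tfrc library. Nespas overlapped both of them in each library. Meg3 overlapped both in the Malat1 library and Tsix in the Tfrc library, and Rian overlapped neither.

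The genes with folds nearest to those of the highest-counted RNAs were found over 7660 genes with at least 100 counts in each of the 3 libraries, by distance in the plane of the log2 folds over the control. For Meg3, at log2 folds of 2.33 in the Malat1 library and 1.57 in the Tfrc library, they were Gm17066, Slc1a3 and Enox1, at distances of 0.05, 0.06 and 0.08, and 6 genes lay within 0.1. For Rian, at 1.84 and 1.31, they were Ddx31, Fto and D730040F13Rik, and 61 genes lay within 0.1. The fold of Meg3 in the Malat1 library was above that of 98.2% of genes and that of Rian above 92.1%. A smaller number of genes near Meg3 follows from that place in the distribution and is no separate result. Counting error did not enter the distances, and Slc1a3 had only 107 control counts.

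Markers of cell types were read in the captured RNA. All 3 libraries are pull-downs, so these shares do not measure the cell make-up of the lysates. All 8 ES cell markers were listed in each library, with sums of 2983, 3871 and 4193 CPM in Actb, Malat1 and Tfrc RIA-seq. Fibroblast markers summed to 18.9, 20.7 and 21.9 CPM with Lum at 0, neural markers to 30.6, 31.4 and 33.7 with Sox1 at 0, and trophoblast markers to 1.25, 2.18 and 3.71 with Tpbpa at 0. Endoderm markers summed to 4.52, 12.9 and 9.28 CPM and mesoderm markers to 0.288, 0.595 and 0.344. These sums mix kinds of count. In the Malat1 library Genome counts were 54 of 72 for Gata4 and 39 of 54 for Gata6, against 6 of 34 and 5 of 10 in the control. Single genes also dominated, with Thy1 at 177 of 197 fibroblast counts and Tubb3 at 244 of 318 neural counts in the control. Within the ES cell list, folds over the control in the Malat1 library ranged from 0.546 for Nanog to 2.36 for Sox2, and in the Tfrc library from 0.784 for Dppa5a to 1.96 for Sox2. The part of these cell types in the levels of the imprinted RNAs was not tested.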

How the data were processed

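The tables cover 3 RIA-seq libraries, 1 per condition, of mouse E14 ES cells, grouped by the oligonucleotides named in the labels. The authors deposited raw read counts per gene, as whole numbers without normalization, in up to 2 rows per gene (Ensembl identifier and Genome). A gene with no read has no line. The submitters' processing notes name Bowtie 0.12.7 and the builds mm9 and NCBIM37. The counting rule, the use of strand and the treatment of reads with several matches are not given in the sources used here, so reads of overlapping genes cannot be told apart. The libraries were made with the NuGEN Ovation V2 kit, which amplifies cDNA. Positions and exon lengths came from GENCODE M1 (NCBIM37), in which 98.6% of 24080 identifiers were found.

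Counts of a gene were summed and divided by the library total (10405209 in Actb, 10078439 in Malat1 and 14553941 in the Tfrc library). Folds used a pseudocount of 0, with a 95% interval on the log scale from the counts. Intervals of shares of a library are Wilson intervals, and those of Genome shares are exact binomial. The floor of 3 counts was between 0.206 and 0.298 CPM (counts per 1000000). A chi-square test, which the paper names, was computed for each gene and compares the reads of 2 libraries. No test between conditions was possible. Distributions were restricted to genes with 10 or more counts in each compared library.

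The members and gene lists were chosen with earlier results of these data known. Named were all members, the genes of their domains, the highest, largest and smallest of the other imprinted genes, and the 3 genes nearest to the 2 most counted members. Gene pairs, Gm17639 and examples from the remaining lists were chosen after their values were seen. Alternatives were 2 other scalings, totals without the 10 most counted genes of each library or without the 3 targets, a pseudocount of 1, each kind of count alone, and minimums of 50 counts or above 0. Ratios within one kind of count were added after the data were seen. The computation was tested on simulated data. The software was scipy 1.17.1, numpy 2.4.6, pandas 2.3.3 and matplotlib 3.10.9 under Python 3.11.15.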

Additional observations from a re-analysis of the deposited data

Results flagged for a closer look

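H19 lay on opposite sides of 1 in the target libraries, with a fold over the control of 0.966 (0.760 to 1.23) in the Malat1 library and 1.12 (0.906 to 1.39) in the Tfrc library. With 1 library per condition the difference was not tested. Both intervals included 1 and overlapped. With median-ratio scaling both folds were below 1, at 0.531 and 0.709. In Ensembl-ID counts over their total both were above 1, at 1.14 and 1.25. No opposite movement is shown.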

How the results depend on the processing

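With 1 library per condition, no library could be left out, and no paired analysis was possible because no replicate numbers exist. The summed fold of the members in the Malat1 library over the control, 4.18, became 2.30 with median-ratio scaling, 2.30 with the 75th percentile, 2.55 without the most counted genes, 3.91 without the targets, 3.76 in Ensembl-ID counts, 5.43 in Genome counts and 1.50 in Genome counts over the Genome total. In the Tfrc library over the control, 2.70 became 1.71, 1.68, 1.90, 2.52, 2.45, 3.43 and 1.19 in the same order. In the Malat1 library over the Tfrc library, 1.55 became 1.35, 1.37 and 1.34 with the first 3 of these, 1.26 in Genome counts over the Genome total and 1.61 in Ensembl-ID counts over their total. The count of genes at a fold of at least 2 in the Malat1 library over the control, 6133, became 1086, 1088 and 1564 with the same 3, 3167 in Ensembl-ID counts, 200 in Genome counts over the Genome total, 3770 with a minimum of 50 and 9523 with a minimum above 0. In Tfrc RIA-seq, 4196 became 960, 914 and 1443, then 1894 in Ensembl-ID counts, 6642 in Genome counts, 178 in Genome counts over the Genome total, 2633 in Ensembl-ID counts over their total, 2109 with a minimum of 50 and 7593 with a minimum above 0. For the Malat1 library over the Tfrc library, 714 became 362, 392 and 357, then 1138 in Genome counts, 426 in Genome counts over the Genome total, 284 with a minimum of 50 and 2032 with a minimum above 0. These changes follow from the totals and counts used.

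Of the values of single members under an alternative, 22 of 50 stayed within the interval of the reported fold in the Malat1 library over the control, 25 of 52 in the Tfrc library over the control and 32 of 52 in the direct comparison. Meg3, Rian, Mirg, Airn and Nespas had a fold above 1 over the control under all of these alternatives, the lowest being 1.06 (0.757 to 1.47) for Airn in Genome counts over the Genome total. In that setting the interval also included 1 in the Tfrc library for Airn, Rian and Mirg, and Airn was at 0.801 in the Malat1 library over the Tfrc library. H19 was at 0.531 and 0.532 with median-ratio and 75th-percentile scaling in the Malat1 library over the control and at 0.709 and 0.698 in the Tfrc library. In Ensembl-ID counts over their total H19 was at 1.14 (0.896 to 1.45) in the Malat1 library. It was at 1.25 (1.01 to 1.55) in the Tfrc library, where the interval lay above 1. In Genome counts alone, a setting chosen once the data had been seen, some changes of count ratios turned direction. These were Mirg over Rian in the Tfrc library (0.973) and Airn over Igf2r in the Malat1 (0.855) and Tfrc (0.945) libraries. Mirg over Meg3 also crossed 1, at 0.950 in the Malat1 library and 0.854 in the Tfrc library. The intervals of all these Genome values included 1. Depth limits Nespas and Airn most, with 28 and 44 control counts.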
